A study of Sus scrofa with 6 samples.

Results

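Cytosolic ribosomal proteins and translation factors were examined in aortic valve leaflets of male and female pigs. The genes were taken from the annotation of the array by their symbols: RPL, RPS and RPLP names, EEF names, EIF names followed by a digit, and RPSA, FAU and PABPC1, without the S6 kinases, the eIF2 kinase EIF2AK2 and the sex-linked RPS4Y1, EIF1AX, EIF1AY and EIF2S3. They came to 105 of the 6765 genes that the annotation names, each read by its probe set with the highest mean over the 6 arrays. By role there were 38 large subunit proteins, 27 small subunit proteins, 6 proteins with elongation factor names and 34 with initiation factor names, the last including the poly(A) binding protein PABPC1. The symbol rule also took in 5 genes that are not core parts of the ribosome or of its factors: EEF1AKMT1, a methyltransferase, EEF1E1, a subunit of the aminoacyl-tRNA synthetase complex, RPS19BP1, a binding partner of RPS19, EIF4EBP2, an inhibitor of cap binding, and EIF4A3, a core protein of the exon junction complex. Genes of this machinery such as EEF2, EEF2K, EIF4EBP1, RPL10, RPL36A and RPL39 had no probe set annotated to them alone and were not analysed here.

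The leaflets came from 3 female pigs and 3 castrated male pigs of mixed breed, 5 months old and about 90 kg in weight, obtained from a slaughterhouse. The endothelium was scraped off with a scalpel before total RNA was extracted from the whole leaflet, and each array carried the RNA of 1 pig. The 6 Affymetrix Porcine Genome Arrays were read here as the deposited log2 expression values, so that a difference of 1 equals 2-fold. All of the males had been castrated, so sex and castration cannot be told apart.

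The cytosolic ribosome joins a small subunit, which reads the mRNA, to a large subunit, which forms the peptide bonds, and its proteins are made in matched amounts around the ribosomal RNAs. Initiation factors bring the initiator tRNA and the capped mRNA to the small subunit, and elongation factors deliver each further tRNA and move the ribosome along. The mRNAs of ribosomal proteins and of several of these factors begin with a pyrimidine-rich tract through which mTORC1 controls their translation, so that their protein output can change without a change in mRNA level.

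No ribosomal protein or translation factor passed the comparison of male and female leaflets. With limma over all 23999 probe sets other than controls, 0 of the 105 genes reached a Benjamini-Hochberg adjusted p under 0.05 with at least 2-fold, against 0.304% of all probe sets, and 0 reached the adjusted p without the fold minimum, against 0.358%. The lowest adjusted p was 0.144 (limma), for RPS9. At an unadjusted p under 0.05 there were 5 genes, which is 4.76% of the 105, while 16.9% of all probe sets and 17.5% of annotated genes lay under it. The 5 were RPS9, EIF2S1, EIF4E and RPL7L1, with the higher mean in males, and EIF4EBP2, with the higher mean in females.

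The differences themselves were small. The median log2 difference, male minus female, was 0.06 (1.04-fold) over the 105 genes, beside -0.01 over all probe sets and 0.05 over annotated genes. In 71 of the 105 genes the difference was under 0.1 in size. The standard error of a gene's difference had a median of 0.10 and ran from 0.09 to 0.26. In limma the variance of each gene is drawn towards a value shared by all probe sets. No probe set had a standard error under 0.088, even where the pigs of a sex lay closer together than that. The 95% interval lay inside a 2-fold change in either direction for 104 of 105 genes, the exception being RPL26, and inside a log2 difference of 0.5 in either direction for 90. For the other 15, among them EIF4A1, EIF3I and RPS15A, the interval reached past 0.5 in at least one direction.

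The small differences leaned to one side. The mean was higher in males for 83 of 105 genes (79.0%), compared with 58.3% of annotated genes and 49.1% of all probe sets. By role the mean was higher in males for 30 of 38 large subunit proteins, 21 of 27 small subunit proteins and 28 of 34 initiation factors. It was higher for 4 of 6 proteins with elongation factor names, a count that includes EEF1AKMT1 and EEF1E1. The 4 subunits of the eEF1 complex split into 2 higher and 2 lower, with a median of 0.04. The role medians were 0.06 for the large subunit, 0.04 for the small subunit, 0.07 for elongation and 0.09 for initiation factors on the log2 scale. Since whole leaflets were measured, fewer cells of a type and less RNA per cell cannot be told apart in any of these values. The 3 male values lay all above or all below the 3 female values in 25 genes (23.8%), against 24.7% of annotated genes and 22.4% of all probe sets. Males were higher in 23 of the 25, and annotated genes and all probe sets had no overlap with males higher in 15.7% and 11.1%. This count rose to 65 when female replicate 2 was left out, where 42.7% of annotated genes had no overlap, and to 38 without male replicate 3, where the share was 42.3%.

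**Figure D1:**
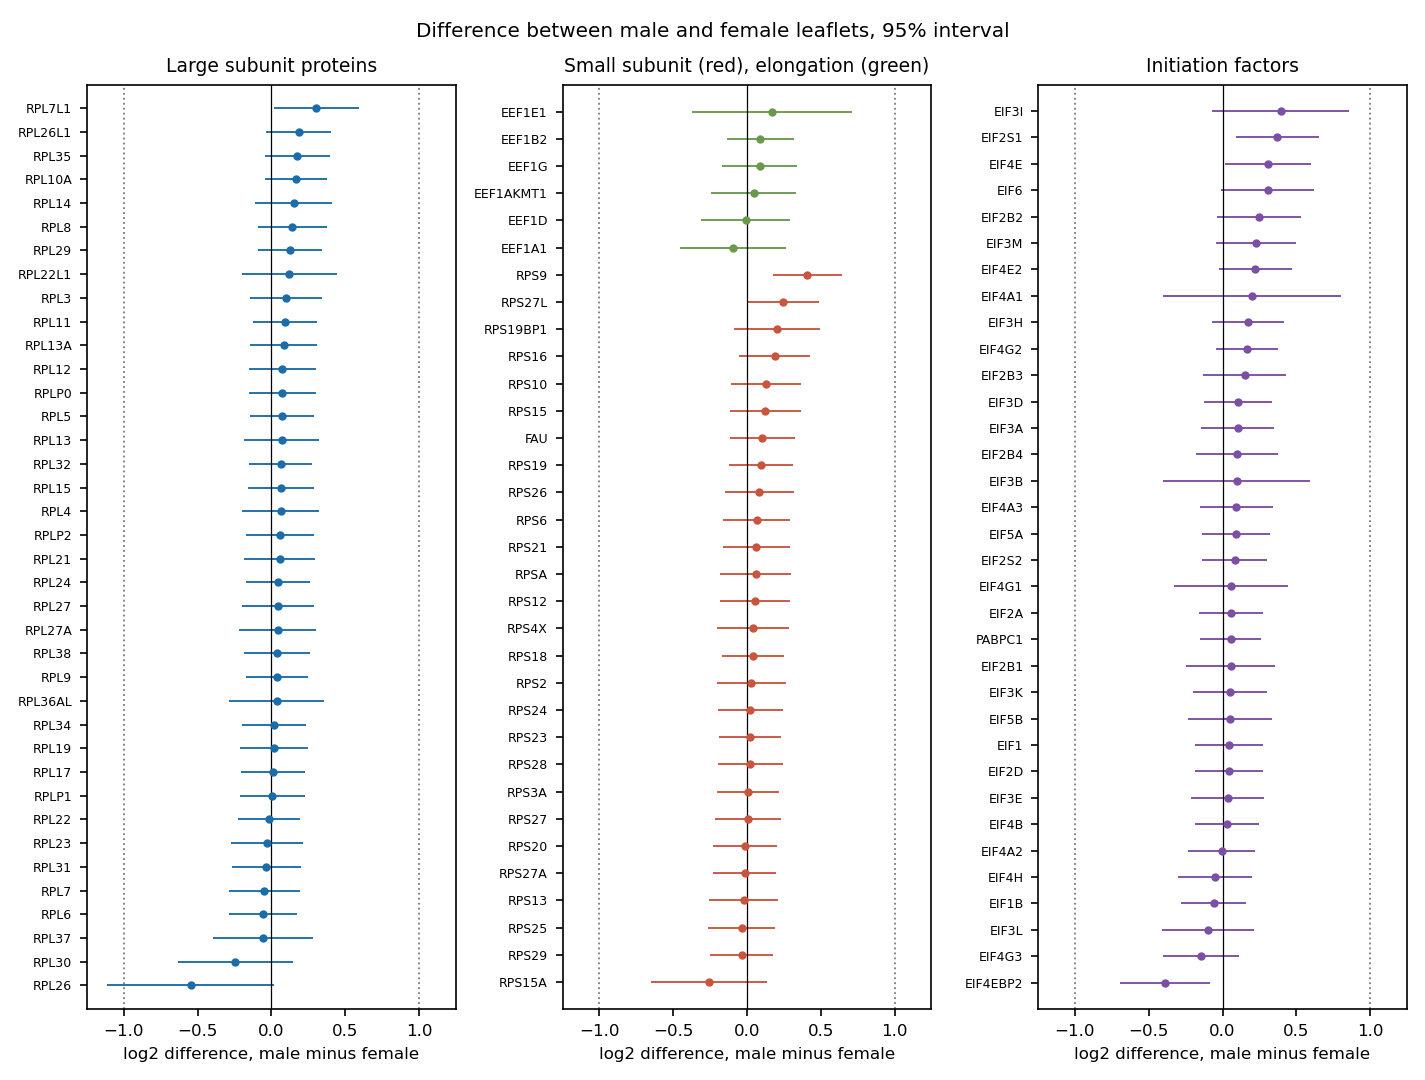
Difference between male and female leaflets in log2 units (x axis) for each of the 105 genes (rows, grouped by role), with points for the difference and bars for the 95% interval of limma. The points run from -0.55 for RPL26 to 0.41 for RPS9, most bars cross 0, and the dotted lines at 1 and -1 mark 2-fold.

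Large subunit proteins of the core ribosome stood close to 0. RPL3, a protein that reaches towards the peptidyl transferase center, had a log2 difference of 0.10 with a standard error of 0.10. RPL5, which with RPL11 carries the 5S ribosomal RNA and can bind MDM2, was at 13.85, 13.80 and 13.77 in males and at 13.69, 13.76 and 13.76 in females. The male values were all above the female values by a small margin, and the difference was 0.07 with an adjusted p of 0.736 (limma). RPL22 varied least among the 105 genes. Its 6 values lay between 13.94 and 13.98, and the difference was -0.02, with an interval from -0.23 to 0.19. RPL13, a surface protein of the large subunit, differed by 0.07 and RPL6 by -0.06, both with overlap of the sexes. The stalk proteins, which recruit the GTP-bound elongation factors, differed by 0.07 for RPLP0, 0.01 for RPLP1 (-0.003 with median-centered arrays) and 0.06 for RPLP2.

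RPL10A and RPL8 were picked as examples after their values were seen, from the large subunit proteins without overlap. RPL10A was at 14.06, 14.07 and 14.04 in males and at 13.87, 13.92 and 13.89 in females. The spread within a sex was narrow, and the difference was 0.17 (adjusted p = 0.393, limma). RPL8, which lies close to the peptidyl transferase center, was at 13.61, 13.61 and 13.58 in males against 13.42, 13.58 and 13.39 in females. The lowest male value and the highest female value of RPL8 nearly met, and the difference was 0.14 (adjusted p = 0.518).

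RPL26, a protein at the exit of the peptide tunnel, had the largest difference in size, although it did not pass. Its values were 5.96, 6.69 and 6.43 in males and 6.83, 7.30 and 6.60 in females, under the median of the array on each of the 6 arrays (7.33 to 7.38). The sexes overlapped, and the log2 difference was -0.55 with a standard error of 0.24 (adjusted p = 0.308, limma). RPL30 was at 5.03, 5.28 and 4.84 in males and 5.02, 5.47 and 5.39 in females. It was under the 25th percentile of every array, as was the small subunit protein RPS15A, so these probe sets read little signal for proteins that every ribosome holds. Both overlapped between the sexes, with differences of -0.24 for RPL30 and -0.26 for RPS15A. RPL37 differed by -0.06 with overlap.

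Several genes encode relatives of a ribosomal protein rather than the standard one. All 5 of them, namely RPL7L1, RPL22L1, RPL26L1, RPL36AL and RPS27L, had the higher mean in males, with a median of 0.19 and a range from 0.03 to 0.31. RPL36AL, at 0.03, changed sign without male replicate 2, female replicate 1 or female replicate 3. RPL7L1, the relative of RPL7, was at 10.69, 10.56 and 10.34 in males and at 10.23, 10.31 and 10.14 in females. The male and female values did not overlap but lay close, at 10.53 ± 0.18 (SD, n = 3) against 10.23 ± 0.08. The difference was 0.31 with a standard error of 0.12 (adjusted p = 0.276, limma), while RPL7 itself differed by -0.05. RPS27L, the relative of RPS27, was at 12.14, 12.08 and 11.96 in males and at 11.73, 11.92 and 11.80 in females. It had no overlap and differed by 0.24 (adjusted p = 0.300), while RPS27 differed by 0.01 (-0.003 with median-centered arrays). The pair RPL22L1 and RPL22 differed by 0.12 and -0.02. RPL26L1 had no overlap and differed by 0.19, opposite in sign to RPL26, whose probe set read under the median of every array and overlapped between the sexes. Whether a relative differed between the sexes by more than its standard partner was not tested.

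Small subunit proteins held the gene with the smallest p. RPS9, a protein near the channel through which the mRNA enters, was at 13.62, 13.65 and 13.65 in males and at 13.30, 13.28 and 13.11 in females. Every male value was above every female value, and the males lay close together. The log2 difference was 0.41 (1.33-fold) with a standard error of 0.10, an interval from 0.17 to 0.64 and an adjusted p of 0.144 (limma). The next small subunit protein of the standard set with the higher mean in males was RPS16, at 14.38, 14.38 and 14.25 in males and at 14.17, 14.24 and 14.05 in females. RPS16 had no overlap, by a narrow margin, and differed by 0.19 (adjusted p = 0.399).

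RPS6, the substrate of the S6 kinases, differed by 0.07, and RPSA, also known as the laminin receptor precursor, by 0.06. FAU, whose product is cleaved into a ubiquitin-like protein and a small subunit protein, was at 13.96, 13.92 and 13.94 in males and at 13.80, 13.92 and 13.79 in females. The highest female value nearly met the lowest male value, and the difference was 0.10 (adjusted p = 0.629, limma). RPS4X, encoded on the X chromosome, was at 13.62, 13.56 and 13.52 in males and at 13.43, 13.66 and 13.49 in females. The female values enclosed the male values, and the difference was 0.04, with an interval from -0.21 to 0.28. RPS18, which had the narrow range of 15.00 to 15.06, differed by 0.04.

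**Figure D2:**
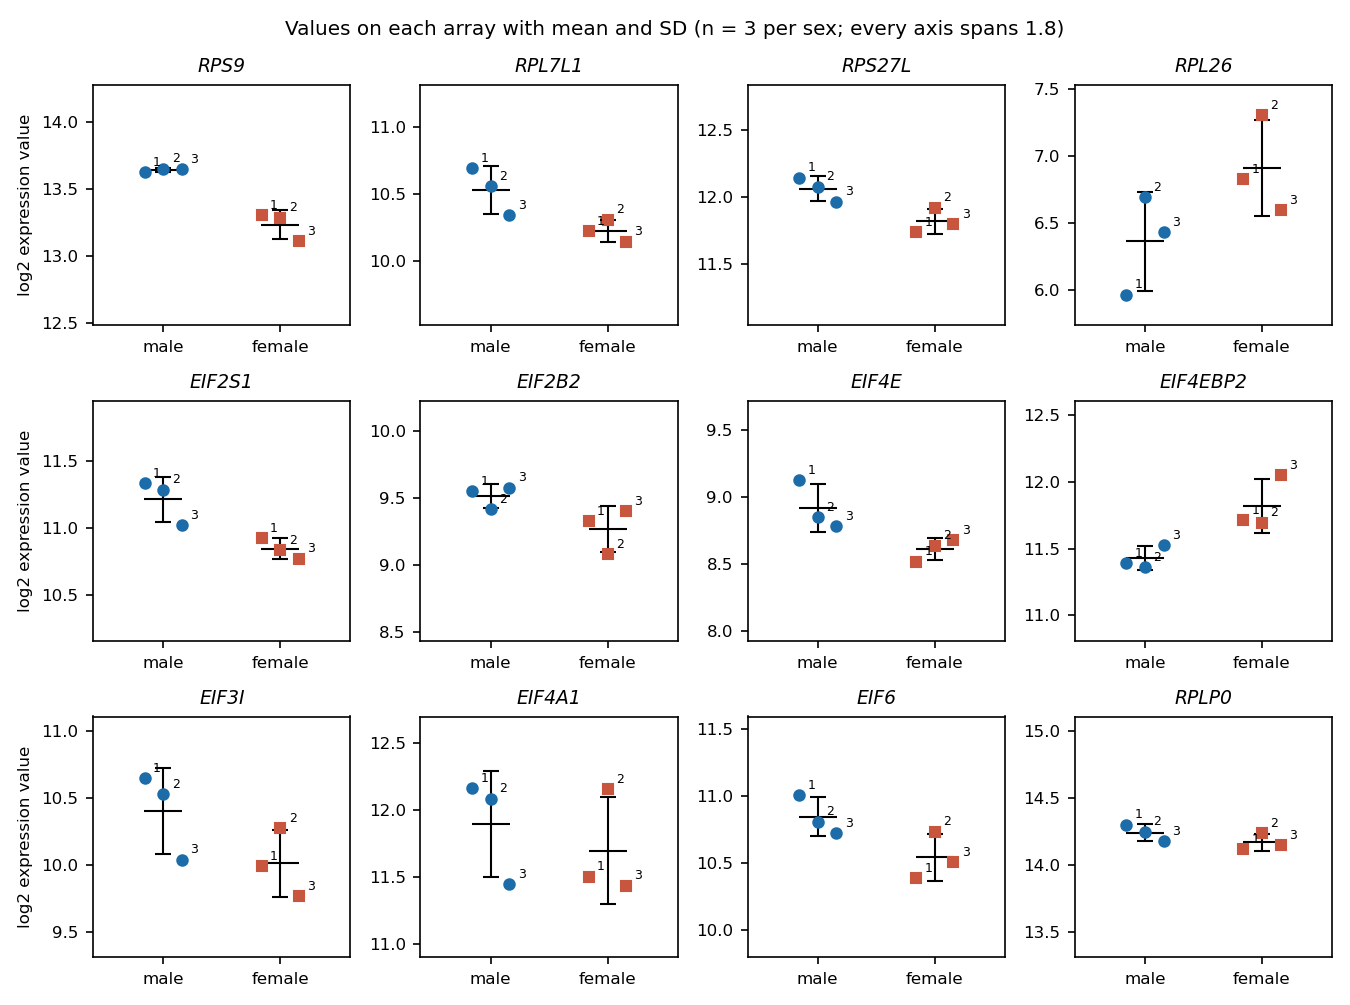
Deposited log2 expression values (y axis) of 12 genes on each array, with circles for males, squares for females, the replicate number beside each point, and lines for the mean and SD of 3 arrays per sex. Every panel spans the same number of log2 units, so RPS9 shows separated sexes, EIF4A1 and RPL26 wide spread, and RPLP0 6 nearly equal values.

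Elongation factors differed little between the sexes. EEF1A1, the GTPase that brings aminoacyl-tRNA to the ribosome, was at 10.85, 10.98 and 10.97 in males and at 10.73, 11.05 and 11.29 in females. The females enclosed the males, and the difference was -0.09 with a standard error of 0.15. Control probe sets for the 3′ end of the same factor read 14.56 to 14.63 over the 6 arrays. The subunits of its exchange factor differed by 0.09 for EEF1B2, 0.09 for EEF1G and -0.01 for EEF1D. EEF1E1, noted after its values were seen, had a wide spread, from 9.61 to 10.44 in males and from 9.63 to 10.15 in females, and differed by 0.17 with a standard error of 0.23.

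Initiation factors included 3 of the 5 genes under an unadjusted p of 0.05, which is 8.82% of the 34, against 17.5% of annotated genes. EIF2S1, the alpha subunit of eIF2, whose phosphorylation lowers initiation under stress, was at 11.34, 11.29 and 11.02 in males and at 10.93, 10.84 and 10.77 in females. Every male value was above every female value, at 11.22 ± 0.17 (SD, n = 3) against 10.85 ± 0.08. The log2 difference was 0.37 (1.29-fold) with a standard error of 0.12 and an adjusted p of 0.206 (limma). The beta subunit EIF2S2 differed by 0.08, with overlap. The 4 measured subunits of eIF2B, the factor that reloads eIF2 with GTP, were each higher in mean in males, from 0.05 for EIF2B1 to 0.25 for EIF2B2. EIF2B2 was at 9.55, 9.42 and 9.58 in males and at 9.33, 9.08 and 9.40 in females. It had no overlap, and its adjusted p was 0.356.

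The cap-binding group had no common direction, with 6 of 10 genes higher in mean in males. EIF4E, which binds the mRNA cap, was at 9.12, 8.85 and 8.78 in males and at 8.52, 8.64 and 8.68 in females. It had no overlap and differed by 0.31 with a standard error of 0.12 (adjusted p = 0.275, limma). EIF4E2, a cap-binding relative that can repress translation, was at 9.22, 9.18 and 9.19 in males and at 8.90, 9.12 and 8.90 in females, a difference of 0.22 without overlap. Its further probe sets, with lower signal, differed by -0.04 and 0.02, both with overlap. EIF4G1, the scaffold that EIF4E joins, differed by 0.06, its relatives EIF4G2 by 0.16 and EIF4G3 by -0.15, both of the latter without overlap. The helicase EIF4A1 had one of the widest spreads, at 12.16, 12.09 and 11.45 in males and 11.50, 12.16 and 11.44 in females. In EIF4A1 each sex had both high and low arrays, and the difference of 0.20 had a standard error of 0.26. PABPC1, which binds the poly(A) tail, was at 14.08, 14.05 and 14.04 in males and at 14.01, 14.00 and 13.99 in females, without overlap at a difference of 0.06 (adjusted p = 0.800).

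EIF4EBP2, which in its unphosphorylated form keeps EIF4E from EIF4G1, was the gene with females highest among those under the unadjusted threshold. It was at 11.39, 11.36 and 11.53 in males and at 11.71, 11.69 and 12.05 in females. Every female value was above every male value, and the log2 difference was -0.39 with a standard error of 0.13 (adjusted p = 0.215, limma). The annotation gives this gene 5 probe sets, which did not share a direction. The other 4 differed by -0.37, 0.34, 0.09 and 0.12, and the first and second of these had an unadjusted p of 0.0180 and 0.0386. The value for EIF4EBP2 thus depended on which probe set was read.

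The eIF3 complex, the scaffold between the small subunit and the other factors, had 8 of 9 measured subunits higher in mean in males, with a median of 0.10. EIF3L, the exception, differed by -0.10. EIF3I was at 10.65, 10.53 and 10.04 in males and at 9.99, 10.28 and 9.77 in females. The sexes overlapped, and the difference of 0.39 had a standard error of 0.20 (adjusted p = 0.365, limma). EIF3M was at 11.22, 11.12 and 10.90 in males and at 10.88, 10.90 and 10.79 in females, a difference of 0.23 with the sexes touching but not overlapping. EIF6, which keeps the large subunit from joining too early, was at 11.01, 10.81 and 10.73 in males and at 10.39, 10.74 and 10.51 in females. It overlapped narrowly and differed by 0.30 (adjusted p = 0.305). EIF1B, a relative of the start codon factor EIF1, differed by -0.06.

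Most ribosomal proteins had nearly the same value in all 6 pigs, which is given as a description with no test. The SD over the 6 arrays had a median of 0.0837 for the 105 genes, beside 0.178 for annotated genes and 0.185 for all probe sets. It was under 0.1 in 62 of 105 genes (59.0%), against 15.3% of annotated genes. By role its median was 0.0790 for the large subunit, 0.0685 for the small subunit, 0.132 for elongation and 0.124 for initiation factors. Signal moved with this spread. On every array 72 of the 105 genes, 58 ribosomal proteins and 14 factors, lay above the 95th percentile of that array (11.46 to 11.52). Among genes with a mean of 13 or more, the SD had a median of 0.0686 over 60 of the 105 genes and of 0.146 over the other 130 annotated genes. Those 130 other genes held 27 under an unadjusted p of 0.05 (20.8%), against 1 of the 60 (1.67%). This p rests on the variance of limma, which is drawn towards that of all probe sets and so is raised for genes with a low SD. The sexes did not overlap in 43 of the 130 genes (33.1%) and in 14 of the 60 (23.3%). Below 13, the 45 remaining ribosomal and factor genes had a median SD of 0.147. Whether values near the top of the range are compressed was not tested.

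**Figure D3:**
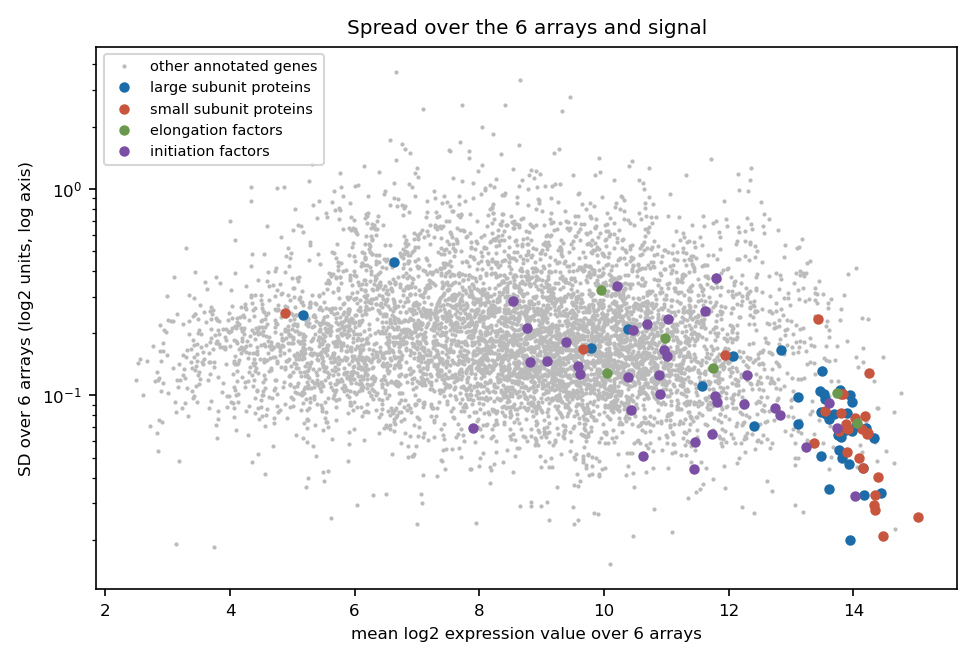
SD over the 6 arrays (y axis, log2 units, log axis) against mean log2 expression value (x axis) for 6765 genes, with the 105 ribosomal proteins and translation factors in color by role and the other annotated genes in gray. Ribosomal proteins gather at the lower right, at means above 13 with SDs mostly under 0.1, while RPL26, RPL30 and RPS15A stand at means under 7.

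On a given array, the small deviations of many genes went the same way. The median deviation of the 105 genes from their own mean over 6 arrays was 0.07, 0.04 and -0.01 for male replicates 1, 2 and 3. For female replicates 1, 2 and 3 it was -0.08, 0.05 and -0.05. Female replicate 2 thus stood with male replicates 1 and 2, and not with male replicate 3 or the other females. It was the highest female array in 83 of 105 genes (79.0%), compared with 40.1% of annotated genes and 32.6% of all probe sets. This held for 34 of 38 large subunit proteins, 22 of 27 small subunit proteins, 5 of 6 elongation factors and 22 of 34 initiation factors. Male replicate 3 was the lowest male array in 67 genes (63.8%), against 40.7% of annotated genes, and male replicate 1 the highest in 67, against 42.6%. Without female replicate 2 the mean was higher in males in 90 genes, where 57.2% of annotated genes were, and without female replicate 1 in 69, where 58.8% were.

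**Figure D4:**
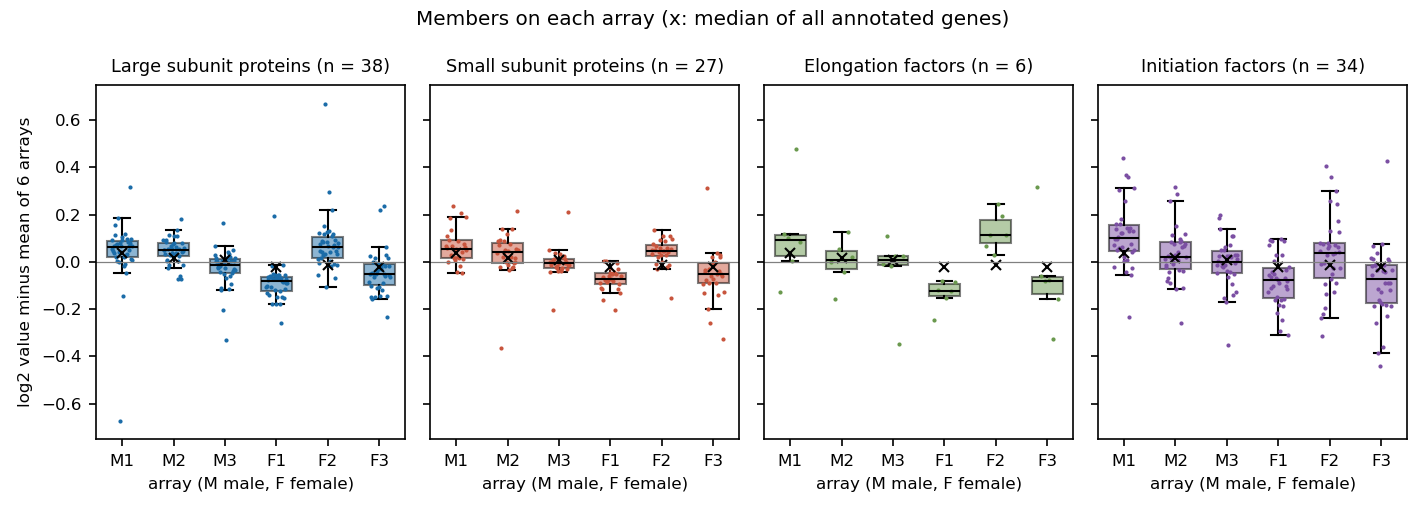
Log2 value of each gene minus its mean over the 6 arrays (y axis) on male arrays M1 to M3 and female arrays F1 to F3 (x axis), by role, with dots for genes, boxes for the quartiles, whiskers drawn to the farthest gene within 1.5 box heights, and a cross for the median of all annotated genes. In the ribosomal proteins F2 lies at the level of M1 and M2, while F1 and F3 lie under 0.

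Other measures also differed between the arrays, not all in the same order. Of 10 endothelial markers 8 were measured, and in 7 the male mean was above the female mean (median difference 0.99 on the log2 scale). Their mean level ran from 9.20 to 10.13 in males and from 8.65 to 9.33 in females, and KDR was under the 25th percentile on every array. Their median deviation was 1.07, 0.65 and -0.06 for male replicates 1 to 3 and -0.69, -0.11 and -0.75 for female replicates 1 to 3. The 3 measured genes of cycling cells, of 5 listed, were also higher in mean in males (median 0.56). None was below the 25th percentile, and the mean level was 8.32 to 9.33 in males and 8.08 to 8.55 in females. Their median deviation was 0.58, 0.33 and -0.38 for male replicates 1 to 3 and -0.02, -0.23 and -0.48 for female replicates 1 to 3. Of the 7 measured valve interstitial markers, of 9 listed, 1 was higher in mean in males, with a median of -0.25 and levels of 11.94 to 12.21 against 12.19 to 12.32. Smooth muscle, macrophage, lymphocyte, cardiomyocyte and erythroid markers had medians of 0.01, 0.28, 0.03, -0.03 and 0.05. The signal of the 3′ control probe set minus the 5′ one, which grows as RNA breaks down, was 2.57 for elongation factor 1 alpha in female replicate 3 and 1.28 to 1.46 on the other arrays, and female replicate 3 was also highest for GAPDH (2.69) and actin (3.80). Female replicate 2 was the lowest array for an 18S ribosomal RNA control, at 11.35 against 12.51 to 12.72. For the other 18S control it was the highest, at 10.76 against 9.72 to 10.16. It was the lowest for both 28S controls, at 13.08 against 13.49 to 13.95 and at 12.66 against 12.92 to 13.43. On the 5S control it lay within the other arrays, at 6.80 against 6.26 to 7.46. The part of these measures in the deviations of the ribosomal proteins and factors was not tested.

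Of the 105 genes, 40 had more than 1 probe set, and the further probe sets gave a less even picture. There were 57 of them, 25 with a mean under 8, and 30 had the same sign as the gene's main probe set. In 22 of the 40 genes both signs occurred. At an unadjusted p under 0.05 there were 10 (17.5%), close to the 16.9% of all probe sets and 17.5% of annotated genes. Of the 10, 4 were higher in males and 6 higher in females, and 0 passed the adjusted p. FAU ranged from -0.27 to 0.63 over its 5 probe sets. A further probe set of EIF4H, which stimulates the helicase, differed by -0.50 (adjusted p = 0.151, limma), while the main one differed by -0.05. EIF4H was noted after its values were seen. Of the further probe sets 52.6% were higher in mean in males, and how this differs from the main probe sets was not tested.

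**Figure D5:**
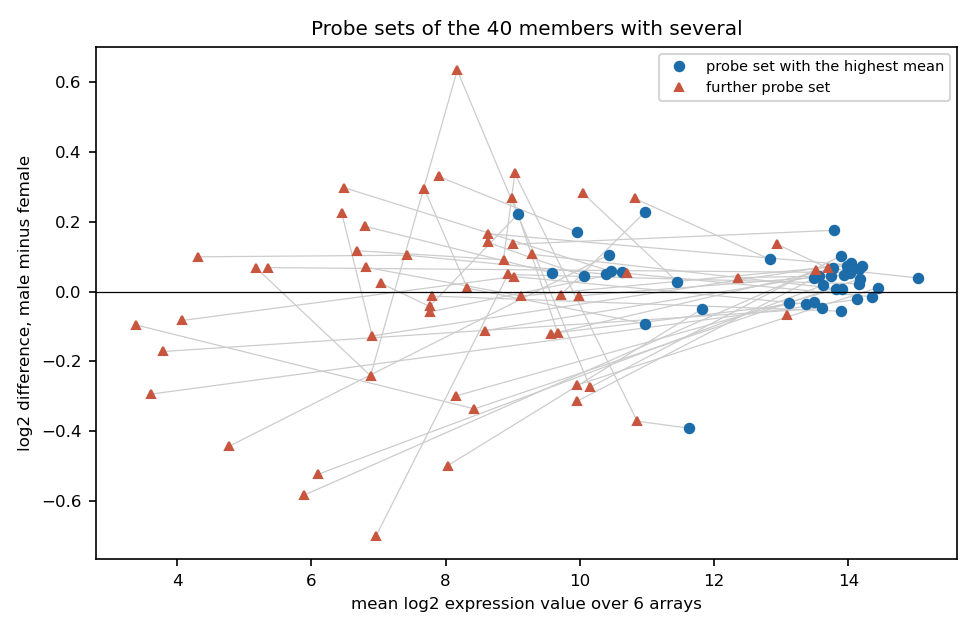
Log2 difference, male minus female (y axis), against mean log2 expression value (x axis) for all probe sets of the 40 genes with several, with circles for the brightest probe set of a gene, triangles for further ones and lines joining those of a gene. The circles lie close to 0 at high signal, and the triangles spread from -0.70 to 0.63.

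Gene lists next to the cytosolic machinery had no gene past the adjusted p, apart from the sex-linked list. Their shares of genes higher in males and of genes under an unadjusted p of 0.05 stand beside 58.3% and 17.5% of annotated genes. Mitochondrial ribosomal proteins, which translate the mRNAs of the mitochondrial genome, were higher in mean in males in 50 of 58 genes (86.2%), with a median of 0.18. The 10 genes under the unadjusted p (17.2%) were close to the share of annotated genes. MRPS24 was at 10.06, 9.75 and 9.87 in males and at 9.33, 9.40 and 9.52 in females (0.47, adjusted p = 0.148, limma), and MRPL35 differed by 0.34. These 2 genes had no overlap of the sexes. Of 61 ribosome biogenesis genes 47 were measured, and 38 were higher in mean in males (80.9%), with a median of 0.15 and 4 under the unadjusted p (8.51%). WDR12, a subunit of the complex that matures the large subunit, was at 7.99, 7.78 and 7.49 in males and at 7.06, 6.86 and 6.81 in females. The sexes were well apart, and its difference of 0.84 had an adjusted p of 0.0814 (limma). Leaving out 1 array gave 0.72 to 0.97, the highest without male replicate 3, where the adjusted p was 0.0394. In that setting 285 of all probe sets were called, against 73 with all arrays. PNO1, which acts in small subunit assembly, differed by 0.44.

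Aminoacyl-tRNA synthetases and their cofactors, of which 17 of 40 listed names were measured, were higher in mean in males in 13 genes (76.5%), with a median of 0.18 and 5 under the unadjusted p (29.4%). HARS, the histidine enzyme, differed by 0.39 and the scaffold AIMP2 by 0.32. In the mTORC1 and S6 kinase list 18 of 32 genes were measured, 11 were higher in males (61.1%) and 2 lay under the unadjusted p (11.1%), both shares near or below those of annotated genes. These 2 went in opposite directions, 0.54 for LAMTOR2, a part of the complex that anchors mTORC1 at the lysosome, and -0.33 for MKNK1, a kinase of EIF4E. Of the integrated stress response genes, which act around eIF2 phosphorylation, 12 of 18 were measured, 8 were higher in males (66.7%) and 5 lay under the unadjusted p (41.7%). PPP1R15A, the phosphatase subunit that restores eIF2, ran from 10.24 to 10.61 in males, above each female array. It differed by 0.60 (adjusted p = 0.157, limma). ATF3, a stress-induced transcription factor, was at 10.27, 10.49 and 10.47 in males and at 10.04, 9.15 and 8.81 in females (1.07, adjusted p = 0.169). Leaving out 1 array gave 0.81 to 1.43 for ATF3. The highest came without female replicate 1, its highest female value, where the adjusted p was 0.0409 (limma).

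Among cap and poly(A) regulators 15 of 26 were measured, 9 were higher in males (60.0%) with a median of 0.03, and 2 lay under the unadjusted p (13.3%), namely CNOT8, a deadenylase (0.35), and NCBP2, of the nuclear cap-binding complex (0.38). Of 21 nascent chain factors 19 were measured, 13 were higher in males (68.4%) with a median of 0.06, and METAP1, which removes the first methionine, was the 1 gene under the unadjusted p (5.26%), with a difference of 0.44. BTF3, a subunit of the nascent chain complex, differed by 0.17. None of the 8 termination and recycling factors listed was matched. The sex-linked list had 2 measured genes of 7, the Y-linked EIF1AY, which females lack and which was called, and its X-linked partner EIF1AX, a scanning factor. EIF1AX was at 11.28, 11.25 and 11.42 in males and at 11.40, 11.77 and 11.79 in females. Female replicate 1 lay within the males, and the difference was -0.34 (adjusted p = 0.275).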

How the data were processed

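Total RNA (400 ng per sample) had been amplified and labeled by in vitro transcription, and the product had been hybridized to 6 porcine arrays. The authors deposited log2 expression values made with RMA, per the labels in R 2.12.0, a method that subtracts background, equalizes the distributions of the arrays and combines the probes of each set into 1 value. No further normalization was applied. Of 24123 probe sets, 124 controls were left out of the tests.

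Males were compared with females with limma 3.58.1 in R 4.3.3 (lmFit and eBayes, no covariate) over 23999 probe sets, with Benjamini-Hochberg adjustment over all of them. A probe set was called at an adjusted p under 0.05 and a log2 difference of at least 1. Intervals used the standard error and degrees of freedom of limma. The array annotation names 1 gene for 10069 probe sets, several for 198 and none for 13732. Probe sets with several symbols were not used, so 5 genes of the symbol rule have no values here. By Entrez ID, 104 of 105 genes were found under the same symbol in a RefSeq table. Sequences and positions were not used here.

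The fit was tested on simulated data. Members, roles and gene lists were chosen with earlier results of these data known. Named genes are the 10 largest differences in each direction, the smallest p of each role, and the 2 smallest p of each further list (with any past the adjusted p). Further named genes were picked for their function, a paralog or, for RPS4X, the X chromosome. RPL5, RPL13, EIF2B1 and EIF2S1 were named because the gene networks of the study, made from these same data, hold them. Among the other genes given values, RPL7, RPL8, RPL10A, RPL26L1, RPL36AL, RPLP1, RPLP2, RPS16, RPS18, EEF1D, EEF1G, EEF1E1, EIF2S2, EIF4G2 and EIF4H were chosen after their values were seen. The settings were also run on these genes and on the list genes, an addition made after seeing the data. Other settings were median centering, quantile normalization, a filter on low signal, keeping the most variable 10% by SD over mean, a trend of variance with intensity, a replicate block, gene means, the probe set with the largest SD, and leaving out each array. Figures were drawn with matplotlib 3.10.9.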

Additional observations from a re-analysis of the deposited data

How the results depend on the processing

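No ribosomal protein or translation factor was called by limma under any of the 14 other settings. The lowest adjusted p of one was 0.0790 (limma), with a trend of variance with intensity. In the settings that kept all of them, 2 to 13 of the 105 lay under an unadjusted p of 0.05. The share of all probe sets under it is given here for the main fit only, so these counts have no background beside them. Over all probe sets 73 were called, 204 with the replicate block, 183 of 2412 with the filter for the most variable probe sets, and 13 to 285 when 1 array was left out. That filter kept 1 of the 105 genes, RPL26, so its counts of genes higher in males and without overlap were 0 and 0, and its medians over all genes and over the large subunit were -0.55. In the other settings with all arrays and all 105 genes, 73 to 83 were higher in males and 19 to 28 had no overlap. The 19 came with median centering, and the 73 and 28 with the probe set with the largest SD. When 1 array was left out, 69 to 90 were higher in males, against 57.2% to 58.8% of annotated genes. Genes without overlap then numbered 27 to 65, against 29.2% to 42.7% of annotated genes, a count that leaving out an array cannot lower. The median was then 0.04 to 0.11. By role it was 0.02 to 0.09 for the large subunit, 0.014 to 0.092 for the small subunit, -0.01 to 0.12 for elongation and 0.05 to 0.13 for initiation factors.

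The labels do not say whether the replicate numbers pair the pigs. Deviations of same-numbered arrays correlated at -0.10, 0.01 and 0.27, and those of differently numbered arrays at -0.22 to 0.21. So few pairs cannot decide whether the numbers carry a pairing. With the numbers as a block, 0 of the 105 genes were called, 83 were higher in males and 6 lay under the unadjusted p. The share of all probe sets under that p with the block is not given here.

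Of the 66 genes recomputed under each setting, 14 changed sign under at least 1, 9 of them among those named by the rule. For EEF1A1 the mean of its probe sets gave 0.070 and the probe set with the largest SD 0.29, for EIF3M the latter gave -0.010, for RPS6 these gave -0.028 and -0.12, and median centering gave -0.0030 for RPS27. RPLP1 was -0.0032 with median centering, -0.15 as a gene mean and -0.30 for its probe set with the largest SD. Leaving out 1 array gave ranges of -0.24 to 0.042 for EEF1A1, -0.052 to 0.11 for EIF2B1, -0.22 to 0.0042 for EIF3L, -0.042 to 0.22 for EIF4G1, -0.20 to 0.046 for RPL37, -0.016 to 0.053 for RPS27, -0.0090 to 0.10 for RPS4X, -0.089 to 0.11 for EEF1D, -0.026 to 0.39 for EEF1E1, -0.11 to 0.024 for EIF4H, -0.046 to 0.15 for RPL36AL and -0.028 to 0.048 for RPLP1. The cause was not tested. With 3 arrays per sex and a median limma standard error of 0.10, differences of the size seen in most of these genes could not be told from 0. Part of that error is shared over all probe sets, so it does not measure the spread of these genes alone. For RPL10A it was 0.089, beside SDs of 0.015 in males and 0.025 in females. With the intensity trend 11 of the 105 genes lay under an unadjusted p of 0.05 (limma), against 5 without it. The share of all probe sets under that p with the trend is not given here, so the 11 cannot be set against it.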
